A study of Mus musculus with 13 samples.

Results

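In 14032 regions of the mouse genome, no read of 5-hydroxymethylcytosine (5hmC) was found in knee cartilage of mutant mice whose joint had been destabilised, while cartilage of sham-operated wild-type mice was read there. These regions were chosen from the authors' table of mutant DMM against wild-type sham knees, where DMM is destabilisation of the medial meniscus, an operation that makes the joint unstable and leads to osteoarthritis. A region was kept when it lay on chromosomes 1 to 19, had a mutant DMM mean of 0 and shared no base with a region of the authors' table of mutant DMM against wild-type DMM. They are 14032 of the 72486 regions in their table (19.4%), of the 67366 on chromosomes 1 to 19 (20.8%) and of 181833 regions in all 3 tables of the series. They are called unread regions here, and the 24426 other regions of the same table and chromosomes whose mutant DMM mean was under the sham mean are called other lower regions.

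5hmC is made when a TET enzyme, such as TET1, oxidises 5-methylcytosine, and it is found in the bodies of transcribed genes and at enhancers. It can persist in DNA or be oxidised further and replaced by plain cytosine. Reduced representation hydroxymethylation profiling (RRHP) reads 5hmC only at CCGG, the recognition site of the enzyme MspI: glucose is put on 5hmC, the glucose protects the site from a repeated digest, and fragments that survive are sequenced. A region without a read therefore had no protected fragment sequenced, which depends on the depth of a library as well as on the mark.

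The MUT DMM group (genotype labelled TET-/-, DMM) had 3 entries, of which 2 were identical in 100% of regions and were counted once, so it holds 2 distinct libraries. The WT DMM group (TET1+/+, DMM) and the WT sham group (TET1+/+, joint opened only) had 3 libraries each. All came from knee cartilage of male B6;129S4 mice 6 weeks after surgery, and the mice were 3 to 4 months old by the design text but 4 to 6 months old by the treatment protocol. That protocol also puts each control on the opposite leg, and neither the part of Tet1 that was mutated nor the cells it was mutated in is given in the sources used here. MUT DMM and WT sham differ in genotype and in surgery together, so the 2 cannot be told apart in this contrast, and MUT sham knees and the background control without glucosyltransferase were not analysed here. The design text calls the replicates biological without naming separate animals, so a p-value reflects how these libraries vary, which may be technical. PCR reads carried no molecular identifiers, and every interval covers counting error only. No RNA was measured, so the tissue label could not be checked against marker expression: the 7 chondrocyte markers Col2a1, Acan, Sox9, Comp, Matn3, Col9a1 and Prg4 held 0 unread regions and 5 other lower regions between them.

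Depth differed widely between the libraries. Over the regions listed for MUT DMM against WT sham, 3422008 reads came from the deeper MUT DMM library and 302082 from the shallower, against 4720342, 2136912 and 7860851 in the WT sham libraries, named by their place in the table. A read was worth 0.736 normalized counts in the deeper MUT DMM library and 9.45 in the shallower, against 0.530, 1.16 and 0.277 in the sham libraries. An absence of reads allows up to 3 reads, which is 2.21 normalized counts in the deeper MUT DMM library and 28.3 in the shallower. Only 16 unread regions had a sham mean above the limit of the shallower library, so the deeper library alone carries the comparison in nearly all of them. The first-listed WT DMM library was close to empty. This bears on the choice of regions: in MUT DMM against WT DMM, 518 of 518 regions with a MUT DMM mean of 0 had a read in that library, against 15508 of 39971 lower regions (38.8%), and overlap with that table removed 557 of 14589 candidate regions.

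Promoters carried few of the unread regions. Of the 14032, 174 (1.24%) shared a base with a promoter window, taken as 250 bases before to 50 after a RefSeq gene start, against 361 other lower regions (1.48%). CCGG, which reads the same on both strands, was found in 71.9% of the 196 windows that met an unread region, in 72.2% of 399 windows that met other lower regions only, and in 53.5% of all 31396 windows on these chromosomes. Of 125 windows that shared at least 100 bases with an unread region, 61 (48.8%) held a CCGG inside the shared stretch. The 4 of these with the highest value in their lowest sham library are printed because they let CCGG sites inside the region be seen in the promoter. Each region runs past its window, and which CCGG gave the reads was not determined. They are RefSeq sequences of build GRCm38.p6 on the gene's strand, with each CCGG in capitals: Fcgr1 at chr3:96293920-96294219 on the minus strand, Glrx2 at chr1:143739099-143739398 on the plus strand, Recql5 at chr11:115933443-115933742 on the minus strand and Nmnat2 at chr1:152954851-152955150 on the plus strand.
Fcgr1: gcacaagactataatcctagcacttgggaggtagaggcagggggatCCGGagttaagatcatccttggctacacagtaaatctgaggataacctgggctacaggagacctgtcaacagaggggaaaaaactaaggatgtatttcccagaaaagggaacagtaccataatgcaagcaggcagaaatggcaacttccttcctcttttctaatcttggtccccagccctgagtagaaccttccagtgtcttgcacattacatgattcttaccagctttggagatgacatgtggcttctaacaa
Glrx2: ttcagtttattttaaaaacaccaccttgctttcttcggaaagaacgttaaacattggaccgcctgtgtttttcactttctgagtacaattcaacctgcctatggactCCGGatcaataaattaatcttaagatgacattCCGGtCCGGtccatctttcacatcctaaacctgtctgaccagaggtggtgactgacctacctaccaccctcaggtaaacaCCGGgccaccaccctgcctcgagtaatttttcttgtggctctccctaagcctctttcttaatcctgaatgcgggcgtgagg
Recql5: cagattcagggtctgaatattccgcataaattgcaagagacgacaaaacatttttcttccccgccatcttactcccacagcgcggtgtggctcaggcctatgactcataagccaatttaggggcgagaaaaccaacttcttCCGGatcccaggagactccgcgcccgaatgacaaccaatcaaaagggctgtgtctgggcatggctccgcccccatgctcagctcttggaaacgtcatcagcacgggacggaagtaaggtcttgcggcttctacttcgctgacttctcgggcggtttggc
Nmnat2: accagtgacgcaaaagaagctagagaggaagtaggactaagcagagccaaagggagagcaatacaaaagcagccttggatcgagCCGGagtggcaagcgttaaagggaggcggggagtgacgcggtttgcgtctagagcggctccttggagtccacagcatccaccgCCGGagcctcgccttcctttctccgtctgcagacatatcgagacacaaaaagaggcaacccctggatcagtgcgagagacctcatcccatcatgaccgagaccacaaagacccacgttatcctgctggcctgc

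Fcgr1 encodes the high-affinity receptor for immunoglobulin G on macrophages. The unread region over its promoter, chr3:96294041-96294320, covered the single CCGG of the window and had 0 reads in MUT DMM against 14, 9 and 26 reads in the sham libraries, or 8.35 ± 1.80 normalized counts (SD, n = 3). Glrx2, a glutaredoxin of mitochondria, has 4 CCGG in the window shown, 3 of them inside the region, which had 0 reads in MUT DMM and 11, 7 and 30 in sham. Recql5, a RecQ helicase, has 1 CCGG, inside a region with 0 reads in MUT DMM and 11, 7 and 24 in sham. Nmnat2, an enzyme of NAD synthesis that protects axons, has 2 CCGG, 1 of them inside a region with 0 reads in MUT DMM and 11, 5 and 23 in sham. In all 4 promoters each sham library was read, at sham means of 6.00 to 8.35 normalized counts.

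Weak sham signal was the common feature of the unread regions. The MUT DMM values were 0 by the rule in both libraries, against sham medians of 5.30, 6.95 and 4.99 normalized counts, which are 10, 6 and 18 reads. All 14032 had reads in all 3 sham libraries, and the fewest in any region were 4, 3 and 7 reads. The sham mean had a median of 6.14, with 90% of regions between 4.27 and 9.76 and the extremes at 3.88 and 62.3. In other lower regions the sham medians were 12.7, 16.2 and 13.3 normalized counts, the sham mean had a median of 14.9, and the deeper MUT DMM library had a median of 4 reads. These values come from the contrast that chose the regions and are given without a test. The authors' adjusted p was under 0.05 for every unread region (largest 0.0105), and 57.0% of the 67366 regions were lower in MUT DMM by that rule, from which nothing is read because the rule used the same contrast.

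**Figure D1:**
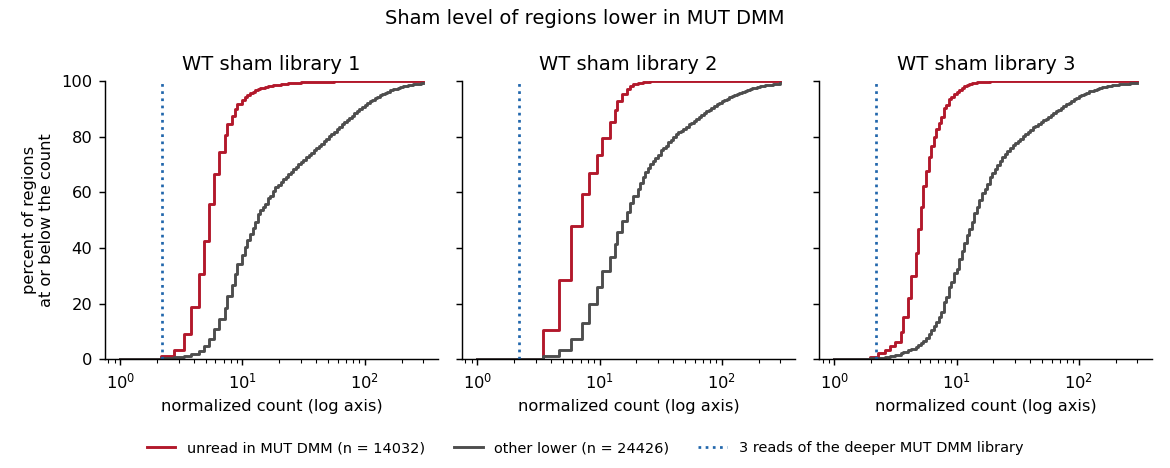
Each panel plots, for 1 WT sham library, the percent of regions (vertical) at or below a normalized count (horizontal, log axis) for the 14032 unread and the 24426 other lower regions; the dotted line is 2.21, the worth of 3 reads in the deeper MUT DMM library. The unread regions rise steeply just right of the line in each library, with medians of 5.30, 6.95 and 4.99, while other lower regions reach their medians at 12.7, 16.2 and 13.3.

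The size of the difference that can be read is limited by depth. The sham mean was 2.78 times the limit of 3 reads in the deeper MUT DMM library in the median unread region, with a range of 1.76 to 28.2. These ratios take the sham mean as measured, without its counting error, in regions chosen by the same contrast, so they are no strict lower bounds. A region at the median sham mean corresponded to 8.34 reads of the deeper MUT DMM library, where 0 were found. The 3 sham libraries were alike in most regions: the SD over the mean had a median of 0.272, and the highest library held a median of 42.2% of the summed value. The second sham library, whose reads were worth the most, was the highest in 53.8% of unread regions and in 43.1% of other lower regions. Together the unread regions held 3.45%, 4.46% and 3.48% of the reads of the sham libraries in the table, while other lower regions held 37.1%, 37.4% and 36.0%.

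Whether a lower region was unread followed its sham level closely. The MUT DMM mean was 0 in 21.7% of all 67366 regions, before the overlap rule, and in 37.9% of those listed as lower. It was at 0 in 100% of the 3941 lower regions with a sham mean of up to 5 normalized counts, in 71.8% of those between 6 and 7, in 35.0% of those between 8 and 10, in 8.0% of those between 10 and 15 and in 0.0972% of those above 50. The table lists a region only past the authors' p, and the lowest sham mean it listed went up with the MUT DMM reads: 3.88 at 0 reads in the deeper library, 5.62 at 1 read, 6.63 at 2 reads and 8.30 at 3 reads, with the shallower library at 0. The median sham mean was 6.14 inside the rule, against 8.30 in the 4721 regions just outside it, with 1 read in the deeper library, and 6.36 in the 557 removed for overlap. Every listed lower region with a sham mean under 5.62 had 0 reads in both MUT DMM libraries.

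**Figure D2:**
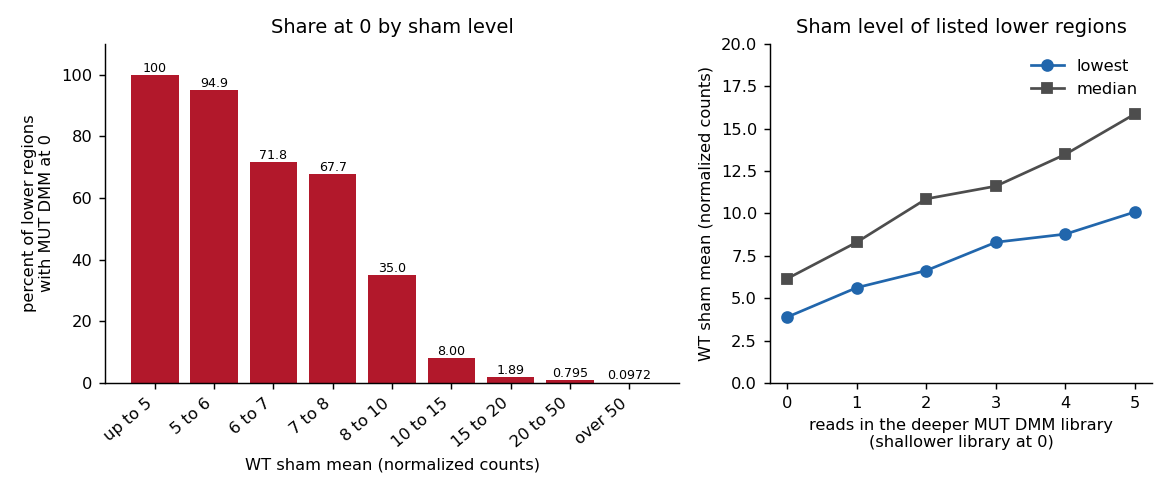
Left, bars give the percent of lower regions whose MUT DMM mean was 0 (vertical) by class of WT sham mean in normalized counts (horizontal); right, the lowest and the median WT sham mean (vertical) of listed lower regions by reads in the deeper MUT DMM library (horizontal). The share is 100% up to a sham mean of 5 and 8.0% between 10 and 15, and the lowest listed sham mean is 3.88 at 0 reads and 8.30 at 3 reads.

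A small set of unread regions was strongly marked in sham knees. The sham mean was above 10 normalized counts in 618 unread regions (4.40%), against 75.5% of other lower regions. It was above 20 in 40 and above 30 in 16. All 3 sham libraries were above 10 in 43, above 15 in 6 and above 20 in 1.

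The region above 20 in every sham library lay in the immunoglobulin heavy chain locus (Igh, chr12:113258768-116009954), the segments of which recombine in B cells. At chr12:115283341-115283740, inside Igh and the lncRNA gene Gm30948, MUT DMM had 0 reads, against 117, 25 and 140 sham reads, which are 62.0, 28.9 and 38.8 normalized counts. The sham mean was 43.3 ± 17.0 (SD, n = 3), 19.6 times the MUT DMM limit. A further Igh region, chr12:115690481-115690860, had 0 reads in MUT DMM and 12.2, 11.6 and 17.5 normalized counts in sham, a mean of 13.8 ± 3.24. A region just beyond the locus, chr12:116158881-116159600, had 0 in MUT DMM and 26.5, 17.4 and 31.6 in sham, and at 720 bases it was the longest of all unread regions. Igh is built of near-identical segments, so reads there may be placed on the wrong copy and these values are uncertain.

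Slc5a11, which encodes a sodium-coupled inositol transporter, held the region inside a gene that came next by the value in its lowest sham library. At chr7:123255521-123255940 MUT DMM had 0 reads, against 42, 15 and 101 sham reads, a mean of 22.6 ± 5.33 normalized counts (SD, n = 3), 10.2 times the limit. Sobp, named for the sine oculis-binding protein it encodes, had 0 in MUT DMM and 12.2, 19.7 and 35.2 normalized counts in sham at chr10:43161341-43162000. Fam171a1, a membrane protein gene, had the closest sham values of these: 0 in MUT DMM, against 14.3, 16.2 and 17.5 in sham at chr2:3174121-3174500, a mean of 16.0 ± 1.59 and 7.24 times the limit. Every sham value of these genes lay above the limit of the deeper MUT DMM library, which follows from naming regions by their lowest sham library. Most lay below the limit of 28.3 in the shallower.

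Leprot, which encodes a partner of the leptin receptor in membrane traffic, had a first sham library above the others. Its region at chr4:101650861-101651240 had 0 in MUT DMM and 29.2, 12.7 and 11.1 normalized counts in sham. Slc25a21, a mitochondrial oxodicarboxylate carrier, showed the same library as the highest, with 0 in MUT DMM and 27.0, 11.6 and 11.1 in sham at chr12:56751201-56751840. The lncRNA gene Pax6os1, which runs beside Pax6, had 0 in MUT DMM and 20.2, 17.4 and 11.1 in sham, and the lncRNA gene Gm12506 had 0 and 11.7, 18.5 and 11.7. Naip1, an inflammasome receptor for bacterial proteins, had 0 in MUT DMM and 12.2, 12.7 and 11.9 in sham, a mean of 12.3 ± 0.407, but it belongs to a family of near-identical genes and its value is uncertain.

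Outside genes, the region with the highest value in its lowest sham library was chr1:113016161-113016560, with 0 in MUT DMM and 19.6, 18.5 and 27.5 normalized counts in sham. The region at chr8:20858301-20858680 had 0 in MUT DMM and 17.5, 16.2 and 15.5 in sham, a mean of 16.4 ± 1.0. The region at chr10:42754941-42755500 had 0 and 25.5, 15.1 and 42.7, and that at chr3:113269761-113270160 had 0 and 28.6, 13.9 and 20.3. All 5 of these regions outside genes, the one beyond Igh included, were read in every sham library at 13.9 or more. The chromosome 8 region lies beside Defb33 and several gene models, and the chromosome 3 region beside the amylase genes Amy2b and Amy2a5, both in clusters of similar gene copies, so these values are uncertain too.

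Region length was close to that of other lower regions. Unread regions had a median of 260 bases (middle 50% from 220 to 280), against 280 (220 to 340) in other lower regions. No length was above 720 in unread regions, against 2100 in other lower ones. Lengths of 400 bases or more were found in 58 unread regions (0.413%) and in 1181 other lower regions (4.84%), and the shortest length, 200 bases, in 20.2% and 16.2%. The gap turned round at matched sham level. Between sham means of 6 and 7 the medians were 260 bases for unread and 220 for other lower regions, between 8 and 10 they were 280 and 240, and between 10 and 15 they were 320 and 280. The authors' program set these bounds from the same contrast, so the lengths are given without a test. Other lower regions include those removed for overlap, whose MUT DMM mean was also 0.

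Position relative to genes, which the rule did not use, was nearly the same in both sets. Of the unread regions 59.1% lay inside RefSeq gene bounds (exact Clopper-Pearson 95% interval 58.3 to 59.9), against 62.1% (61.5 to 62.7) of other lower regions. At sham means of up to 8 the shares were 59.4% of 11881 unread regions (58.5 to 60.3) and 59.4% of 2929 other lower regions (57.6 to 61.2). Above that, where unread regions are few, 48.1% of 52 unread regions lay in genes against 62.3% of other lower regions at sham means of 15 to 20, and 50% of 36 against 61.7% at 20 to 50. Regions outside genes lay a median of 11.7 kb from the nearest gene if unread and 11.3 kb if otherwise lower. Exons and introns were not told apart, because the annotation used gives gene bounds only. Neighbouring regions are not independent, so these intervals are too narrow. Other lower regions include the 557 removed for overlap, whose MUT DMM mean was also 0. Among these are all 129 other lower regions with a sham mean of up to 5. At low sham means the comparison is thus partly between regions at 0 in MUT DMM.

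**Figure D3:**
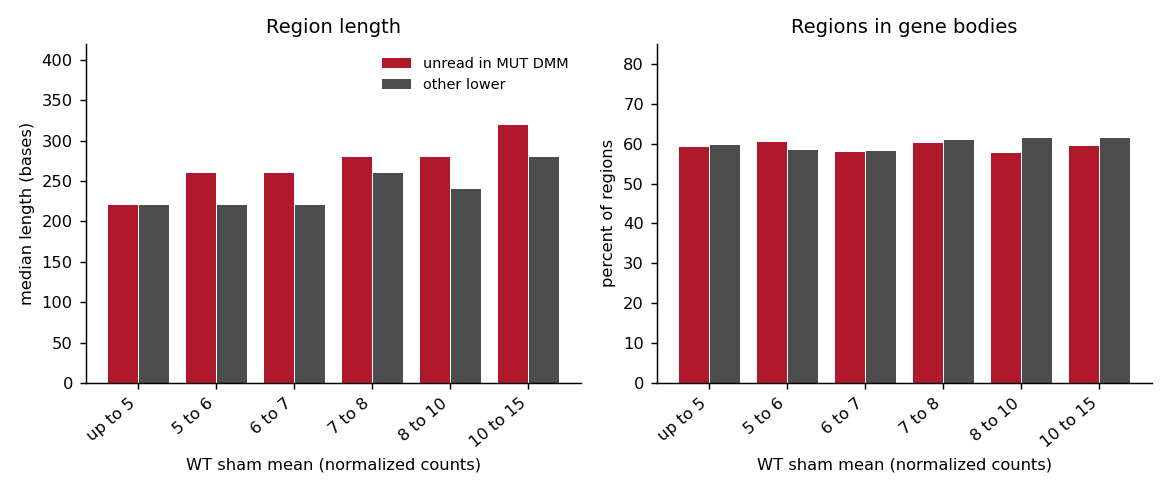
Median region length in bases (left) and percent of regions inside gene bounds (right) by class of WT sham mean in normalized counts, for unread and other lower regions. Up to a sham mean of 15, the classes plotted, unread regions are as long or longer (260 against 220 bases between 6 and 7), and both sets stay between 57.5% and 61.3% in gene bodies.

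Of 20665 protein-coding genes on these chromosomes, 4559 (22.1%) held an unread region, and these were long, with a median length of 58.9 kb against 17.5 kb for all. In 4 classes of about equal size, from the shortest to the longest genes, 3.12%, 11.0%, 23.1% and 51.0% held one, while the number of unread regions per megabase of gene was 12.01, 10.8, 9.39 and 6.26. In all, 145 genes held 5 or more. Igh, which is no single protein-coding gene, held 48 unread regions, 103 other lower and 32 higher regions. The sham means of its unread regions ran from 4.53 to 43.3 normalized counts with a median of 6.77, against a median of 28.9 in its other lower regions.

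Among protein-coding genes Camta1 and Wwox led with 11 unread regions each. Camta1 encodes a calmodulin-binding transcription activator and held 18 other lower regions, and its unread regions had sham means of 4.24 to 9.59 normalized counts. The highest by sham mean, chr4:151308801-151309060, had 0 reads in MUT DMM and 11, 10 and 41 in sham. Wwox, a tumour suppressor gene that spans a fragile site, also held 18 other lower regions, and its unread regions ran from 4.81 to 16.3. In the Wwox region with the highest lowest library, chr8:115016981-115017260, MUT DMM had 0 reads and sham had 11, 9 and 26. Agap1, a GTPase-activating protein of endosomal traffic, held 10 unread and 7 other lower regions. The highest by sham mean, chr1:89863061-89863440, had 0 reads in MUT DMM and 24, 15 and 37 in sham, a mean of 13.5 ± 3.61 normalized counts (SD, n = 3). Ptprn2, a phosphatase-like protein of secretory granules, held 10 unread and 18 other lower regions, with unread sham means of 4.31 to 9.73. At chr12:116847441-116847720 it had 0 reads in MUT DMM and 14, 7 and 22 in sham. Sox5, Sdk1, Asic2 and Pde4d also held 10 unread regions each and are longer than Agap1 and Ptprn2. These 8 protein-coding genes are 440 to 1302 kb long. They also held regions higher in MUT DMM, 10 in Camta1, 13 in Wwox, 8 in Agap1 and 13 in Ptprn2. Sox5, Sdk1, Asic2 and Pde4d held 5, 14, 9 and 9 of these.

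The lists of cartilage matrix genes, chondrocyte transcription factors and proteases held unread regions, while the 7 chondrocyte markers named above held 0. Over chromosomes 1 to 19, 36.5% of lower regions were unread, and the share of each gene list is given beside that value without a test. Among 21 cartilage matrix genes, 6 (28.6%, against 22.1% of all protein-coding genes) held 7 of 23 lower regions (30.4%). Col11a1, a fibril-forming collagen of cartilage, had the highest sham mean of these: chr3:114125681-114126060 had 0 reads in MUT DMM and 34, 7 and 19 in sham, or 18.03, 8.10 and 5.27 normalized counts, with the first library well above the others. Col9a2, a chain of collagen IX on the fibril surface, had 0 reads in MUT DMM and 11, 4 and 16 in sham. The rest were 2 regions in Col9a3, another collagen IX chain, with sham means of 4.90 and 6.54 normalized counts, and 1 each in Cilp, a cartilage intermediate layer protein (5.49), Col27a1, a growth plate collagen (4.32), and Vcan, the proteoglycan versican (7.03).

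Transcription factors of chondrocytes held the most unread regions of any list by count, 38 of 113 lower regions, but that share (33.6%) was under 36.5%. They lay in 12 of 25 genes (48%), against 22.1% of all protein-coding genes. The listed genes are long, with a median of 94.9 kb against 17.5 kb for all protein-coding genes. In the class of longest genes 51.0% held an unread region. Sox5, a partner of SOX9 in cartilage formation, held 10, with 12 other lower and 5 higher regions. Its unread sham means ran from 3.98 to 10.1 normalized counts, and at chr6:144614281-144614560 MUT DMM had 0 reads against 13, 14 and 26 in sham. Nfia, of the nuclear factor I family, held 7 with sham means of 4.55 to 8.52, and Sox6, the close relative of Sox5, held 4 with 5.39 to 8.58. Zbtb20, a zinc finger repressor active in growth plate chondrocytes, held 2; at chr16:43094661-43095040 it had 0 reads in MUT DMM and 17, 6 and 25 in sham, a mean of 7.63 ± 1.20 (SD, n = 3). Higher regions numbered 3 in Nfia, 7 in Sox6 and 6 in Zbtb20. Sox9 itself held 0 unread regions.

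Among 20 protease genes and their inhibitors (median length 51.9 kb), 7 (35.0%) held 14 of 37 lower regions (37.8%). Adamts4, an aggrecanase that cuts the aggrecan of cartilage, had a single lower region, chr1:171257161-171257360, with 0 reads in MUT DMM and 11, 7 and 29 in sham, a mean of 7.33 ± 1.29 normalized counts. Adamtsl1, a related protein without protease activity, held 4 with sham means of 5.29 to 8.53; the highest of these, which also lies in the lncRNA gene Gm33730, had 0 reads in MUT DMM and 15, 9 and 26 in sham. Adamts17 held 4 with 4.44 to 5.57, and Timp3, an inhibitor of ADAMTS proteases, held 1 with 0 reads in MUT DMM and 9, 11 and 18 in sham. Adamtsl1 and Adamts17 also held 5 and 3 higher regions.

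In both signalling lists the share of unread regions was smaller than 36.5%, which was not tested. In the Wnt list (median gene length 44.9 kb), 18 of 40 genes (45.0%) held 24 of 91 lower regions (26.4%). Rnf43, a ubiquitin ligase that removes Wnt receptors from the cell surface, had 0 reads in MUT DMM and 20, 12 and 29 in sham at chr11:87689101-87689480, a mean of 10.9 ± 2.93 normalized counts, which is 4.91 times the limit of the deeper MUT DMM library. Axin1, a scaffold of the complex that degrades beta-catenin, had 0 and 15, 6 and 21 reads. The receptors Lgr4, Lgr5 and Lgr6 held 2, 1 and 3 unread regions, and Ctnnb1, beta-catenin itself, held 1 with a sham mean of 4.96. In the TGF-beta and BMP list (median gene length 61.4 kb), 13 of 36 genes (36.1%) held 20 of 76 (26.3%). Tgfb2, a TGF-beta ligand, had 0 reads in MUT DMM and 11, 6 and 25 in sham at chr1:186681641-186682000, and Smad7, an inhibitor of the pathway, had 0 and 11, 6 and 22 reads at chr18:75390201-75390480. A further Smad7 region was uneven between sham libraries, with 0 reads in MUT DMM and 4, 14 and 41 in sham.

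Among 21 genes of DNA methylation and its removal (median length 32.3 kb), 10 (47.6%) held 13 of 43 lower regions (30.2%), and no TET gene was among them. Tdg, the glycosylase that excises oxidised cytosines made by TET enzymes, held 2. At chr10:82641801-82642080 it had 0 reads in MUT DMM and 15, 6 and 41 in sham, a mean of 8.76 ± 2.32 normalized counts. Cxxc5, a CXXC zinc finger protein that binds unmethylated CpG, had 0 reads in MUT DMM and 11, 6 and 24 in sham, in a region that also lies in the lncRNA gene Gm29417. Dnmt1, the maintenance methyltransferase, held 2 with sham means of 5.37 and 6.91, and Dnmt3a, a de novo methyltransferase, held 1 with 6.56.

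Genes that mark other cell types of the joint were also among them, and a mark near a gene is no measure of its RNA. Of 7 haematopoietic markers 5 held 11 of 22 lower regions (50%), beside 36.5% of all lower regions. Pax5, the B cell transcription factor, held 6 of the 11, with 1 other lower region and 5 regions higher in MUT DMM. In this and the endothelial list 71.4% of genes held an unread region, beside 22.1% of all protein-coding genes. Their median gene lengths are 57.3 and 121 kb, against 17.5 kb for all protein-coding genes. The Pax5 region with the highest value in its lowest sham library, chr4:44653321-44653780, had 0 reads in MUT DMM and 18, 11 and 33 in sham, a mean of 10.5 ± 1.96 normalized counts. Ebf1, another B cell factor, had 0 and 12, 6 and 20 reads. Of 7 endothelial markers 5 held 9 of 22 (40.9%), among them Erg with 0 and 14, 6 and 24 reads and Fli1 with 0 and 13, 8 and 19 reads, both ETS transcription factors. Of 7 skeletal muscle markers 2 held 5 of 15 (33.3%), namely Ttn and Neb, giant proteins of the sarcomere, with 0 reads in MUT DMM and 8, 7 and 24 sham reads in Ttn and 9, 5 and 20 in Neb at the region with the highest lowest sham library. Plin1, a coat protein of lipid droplets, held the 1 lower region of 5 adipocyte markers, with 0 reads in MUT DMM and 8, 8 and 21 in sham. Col5a1, a fibril collagen, held 3 of the 18 lower regions (16.7%) of 6 fibroblast and synovial lining markers, the one with the highest lowest sham library having 0 reads in MUT DMM and 13, 7 and 22 in sham. With 1 to 38 regions in a list, these shares vary widely, and the part of other cell types in the result was not tested. Other marker genes named here also held higher regions: 4 in Ebf1, 2 in Erg, 1 in Fli1, 7 in Ttn and 4 in Neb. Plin1 and Col5a1 held 1 each.

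Tet1 (chr10:62804570-62887469) held 0 unread regions and 3 other lower ones, and no count of the mutated part can be given without its position. At chr10:62840281-62840660 the MUT DMM libraries had 3 and 1 reads and the sham libraries 21, 16 and 41, or 5.83 ± 5.12 (SD, n = 2) and 13.7 ± 4.20 normalized counts (SD, n = 3). At chr10:62832861-62833080 MUT DMM had 33.9 and 56.7 normalized counts and sham had 80.1, 81.0 and 19.4, so the groups overlapped. At chr10:62866021-62866260 MUT DMM had 72.9 and 103.9 and sham had 109.8, 137.8 and 109.3. The nearest unread regions began 3.25 kb and 23.0 kb beyond the end of the gene, both in the lncRNA gene Gm51805, with 0 reads in MUT DMM and sham reads of 21, 10 and 12 in the nearer and 17, 7 and 26 in the farther. The next, 105 kb away in Rufy2, had 0 reads in MUT DMM and 11, 4 and 12 in sham. The 5 Mb that hold Tet1 had 56 unread and 100 other lower regions, a share of 35.9%, near the 36.5% of the genome.

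Unread regions were spread over all 19 chromosomes. Their share of the lower regions ran from 33.4% on chromosome 17 to 41.6% on chromosome 18. In bins of 5 Mb, the fullest 1% of bins held 3.21% of unread regions and 3.52% of other lower ones, and the fullest bin, on chromosome 2, held 78. Across the 489 bins with at least 20 lower regions the share had a median of 37.5% and ran from 12.5% to 61.9%. Of the 2764 pairs of neighbours within 1 kb, 528 began with an unread region, a smaller part than the 36.5% of all lower regions. The next lower region was unread in 36.7% of these 528 cases, and in 15.1% of the 2236 cases after another lower region. Unread regions thus followed unread regions more often than they followed other lower regions. Within 10 kb the shares were 34.8% and 26.7%, and at any distance 39.1% and 35.0%. Neighbouring regions are not independent, and no test was made.

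The effect of DMM without the mutation could be read at few unread regions, and it rests on the same sham libraries. Only 421 (3.00%) shared a base with a region listed for WT DMM against WT sham, 423 regions in all. There the WT DMM medians were 0, 9.34 and 17.7 normalized counts (0, 7 and 17 reads), against sham medians of 3.52, 4.29 and 2.91 (11, 6 and 17 reads), on a scale that differs from that of the other table. In 419 of the 423 the near-empty WT DMM library had no read. By the authors' adjusted p, 406 were higher in WT DMM (96.0%), where 93.2% of the whole table was, and 15 were lower (3.55%), where 6.53% of the table was. By their means 408 were higher, and 272 (64.3%) when the third WT DMM library in the table was left out. Of 1447 regions that met an other lower region and no unread one, 823 (56.9%) were higher by their means.

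With all 6 libraries limma called none of the 423 regions, which cannot show that WT DMM and sham were alike there. This fit kept the near-empty library, which lacked reads in nearly all of them. Its lack of reads widened the WT DMM spread, so a region higher in both other WT DMM libraries could hardly be called. limma on log2(normalized count + 1) over all 43378 regions called 0 of the 423 after Benjamini-Hochberg adjustment, where it called 0.0161% of the table. At an unadjusted p under 0.05 it named 2, where 0.832% of the table passed. Without the near-empty library it called 327, 324 higher and 3 lower, when 77.8% of the whole table was called. With that library left out, both other WT DMM values lay beyond all sham values in the direction of the means in 345 of the 423 (81.6%), and in 81.6% of the whole table. Both shares are at the level of the table, which lists regions only past the authors' p.

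The 3 regions of smallest limma p were lower in WT DMM. At chr3:113270081-113270460 WT DMM had 0, 229 and 190 normalized counts and sham had 187, 197 and 199, a log2 fold change of -2.47 (limma adjusted p = 1.0). The WT DMM values other than that of the near-empty library were within or above the sham range. Only the start of this region is shared with the unread region chr3:113269761-113270160, named above outside genes. Sham had 583, 276 and 1165 reads here against 54, 12 and 73 in the unread region. These values are therefore not WT DMM levels of the unread region. At chr1:79236201-79236440 WT DMM had 0, 0 and 0 and sham had 31.1, 2.15 and 1.37, mostly from the first library (limma adjusted p = 1.0). In Plxdc1, which encodes a plexin domain protein first found in tumour vessels, chr11:97975741-97976000 had 0, 8.0 and 14.6 in WT DMM and 49.0, 31.5 and 52.3 in sham (limma adjusted p = 1.0). Every WT DMM value there lay below every sham value. At chr1:113016181-113016420, over the unread region outside genes with the highest lowest sham library, WT DMM had 0, 30.7 and 39.6 and sham had 11.2, 11.5 and 15.0, so both libraries with reads were above sham.

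**Figure D4:**
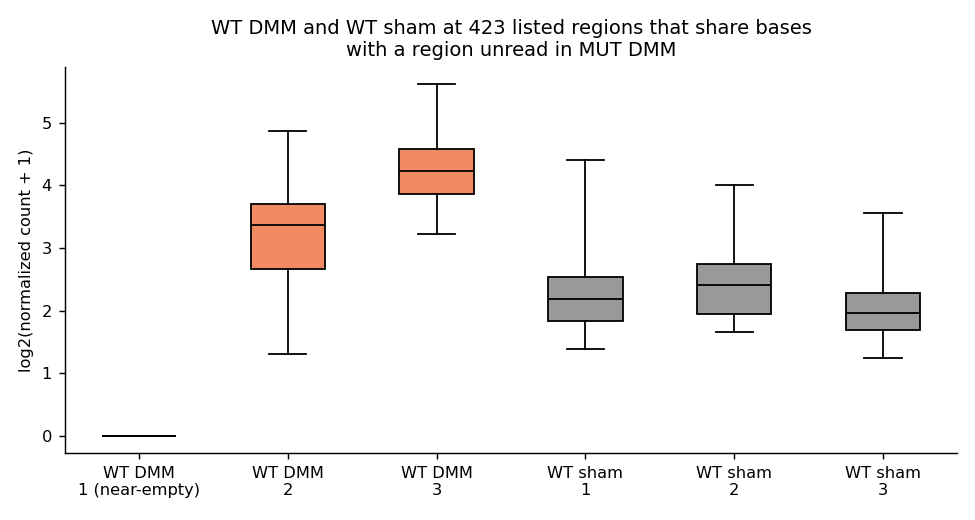
Values on a log2(normalized count + 1) scale (vertical) in each WT DMM and WT sham library (horizontal) at the 423 regions listed for WT DMM against WT sham that share bases with an unread region; boxes span the middle 50%, the line is the median and whiskers reach the 5th and 95th percentiles. The near-empty WT DMM library sits at 0, the other WT DMM medians are 9.34 and 17.7 normalized counts, and the sham medians are 3.52, 4.29 and 2.91.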

How the data were processed

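The data are 5hmC profiles by RRHP of mouse knee cartilage, with MspI digestion, glucosylation, a repeated digest and 15 PCR cycles, per the labels' protocols. The submitters' processing notes name HISAT2 2.1.0, Trim Galore 0.5.0, bedtools, SAMtools and bcl2fastq 2.20.0, and the build mm10; no source used here names the region caller. As deposited, the 3 tables list regions made of 200-base windows at 20-base steps. Per the file headers, each holds joined normalized counts of 3 libraries a group, the mean signal of each group, a log2 fold change, and p-values and adjusted p-values per region. The scaling factor is not given, so levels compare within a table only. Regions are listed only past the authors' window p of 0.0001.

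Each library's values were whole multiples of 1 step in 100% of regions, within 0.02 normalized counts plus 0.01% of the value, and a step was read as 1 read. The deeper MUT DMM library had equal reads in both tables that hold it, at 100% of 1863 regions with shared bounds. Count models were not run, since values are joined, normalized and listed only past a p. The columns carry no replicate numbers. Levels are medians over regions or mean ± SD over libraries; the 3 sham values are weighted equally. Regions of other tables count as shared from 1 base. Gene bounds and promoters came from RefSeq GRCm38.p6, whose coordinates are those of mm10, and names were assigned by position. limma 3.58.1 (R 4.3.3, trended eBayes, pseudocount 1, no filter) was fitted to WT DMM against WT sham over the whole table and was tested on simulated data. The simulated data held no near-empty library, so that test does not bear on the calls made with the near-empty WT DMM library. Shares used scipy 1.17.1.

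The regions, gene lists and named-gene rule were chosen with earlier results of these data known. Named were the 10 regions in genes and 5 outside with the highest value in their lowest sham library, the 5 genes with most regions (ties to the shorter), 2 genes per list, the regions nearest Tet1 and the 3 of smallest limma p; further list members, ties at 10 regions and promoters were named after their values were seen. Alternatives varied the overlap, the threshold on 0, the authors' p, the pseudocount, a filter, the bins, the gene bounds and each library.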

Additional observations from a re-analysis of the deposited data

How the results depend on the processing

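The count of unread regions was 14186 if an overlap had to reach at least 50% of the region, 14032 under the authors' adjusted p and 20962 with a MUT DMM mean of up to 1 normalized count. Leaving out each sham library in turn gave a median sham mean of 5.26 to 6.22 in unread and of 14.0 to 15.3 in other lower regions. Widening gene bounds by 5 kb put 71.3% of unread regions in genes, and bins of 1 Mb put 3.68% in the fullest 1% of bins. Leaving out each library in turn gave 0 to 327 calls by limma among the 423 regions that WT DMM against WT sham lists there: 327 without the near-empty WT DMM library, 5 without the third-listed WT DMM library (0 higher, 5 lower), where 553 of 43378 regions (1.27%) were called, and 0 in the other leave-outs; a pseudocount of 0.5 and a mean of at least 5 gave 0. Under settings added after the data were seen, MUT DMM was at 0 in 9.53% of lower regions with a sham mean above 8, in 38.3% by the deeper library alone and in 76.1% by the shallower alone. No paired analysis was possible because the columns carry no replicate numbers. Depth sets the scale of the ratios to the limit: 3 reads of the deeper MUT DMM library are 2.21 normalized counts.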

Other observations

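Outside chromosomes 1 to 19 a further 700 regions of MUT DMM against WT sham had a MUT DMM mean of 0, which the choice of regions left out. On the X chromosome they were 659 of 1962 lower regions (33.6%), with a median sham mean of 5.97 normalized counts, against 37.9% of lower regions on chromosomes 1 to 19. On the Y chromosome they were 6 of 130 lower regions (4.62%), where the sham mean of all lower regions had a median of 29.4.

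Xylt1, which encodes the xylosyltransferase that starts glycosaminoglycan chains on proteoglycans, held 9 unread, 4 other lower and 1 higher region, with unread sham means of 4.23 to 8.23 normalized counts; it was named after its values were seen. The immunoglobulin kappa locus held 9 unread, 7 other lower and 53 higher regions, whereas Igh held 48, 103 and 32. Both loci are built of near-identical segments, so the placement of their reads is uncertain.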
